A study of Mus musculus with 15 samples.

Results

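The 10 genes described here encode macrophage surface and scavenger receptors: Csf1r, Adgre1, Itgam, Itgax, Cd14, Cd68, Msr1, Cd36, Marco and Cx3cr1. They were chosen by name, and each was read over a window that ran from 5 kb upstream of the gene to its end. All 10 were found among 21938 protein-coding genes of the GENCODE M21 annotation (mm10). The cells were BMDMs, macrophages grown from mouse bone marrow in culture with a source of the growth factor CSF1, and their chromatin was profiled by CUT&RUN, in which an antibody directs a nuclease to a chromatin protein. Region lists of 10 libraries were used, with 2 biological replicates per group: the acetyl mark H3K27ac and the methyl mark H3K36me3 in both WT and H3.3cKO cells (cKO below), and HA-tagged H3.3. WT cells were H3f3a fl/fl : H3f3b fl/fl without Cre. The H3.3cKO cells carried the same floxed alleles and LysM cre/cre, a Cre at the myeloid gene Lyz2, so they lack both genes for the histone variant H3.3 to the extent that Cre acted. The study described deletion of H3f3b as variable, partial as well as complete. H3.3-HA cells came from a separate line of mice in which H3f3b carries an HA tag, and they had their own IgG control. The mice were adults of both sexes. The labels call the replicates biological but do not say whether they came from separate mice, so the spread between them may be technical. The libraries held 5365319 to 29988098 tags and yielded 35018 to 61764 regions each.

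Macrophages sense their surroundings through these receptors. CSF1R relays the survival signal of CSF1 and IL-34. F4/80 (Adgre1), CD11b (Itgam) and CD11c (Itgax) are adhesion receptors used to identify macrophages and dendritic cells, CD14 hands lipopolysaccharide to TLR4, and CX3CR1 binds fractalkine. MSR1, CD36 and MARCO are scavenger receptors that take up modified lipoproteins, lipids or bacteria, and CD68 is a glycoprotein of late endosomes and lysosomes. H3K27ac marks active promoters and enhancers, H3K36me3 is laid down over the bodies of transcribed genes, and H3.3 is the H3 variant that is put into chromatin outside of DNA replication, largely at active genes.

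The promoters at which regions of these lists lay, and 2 regions inside genes that separated the genotypes, are shown first. Promoter sequence from RefSeq (GRCm38.p6, 250 bases before to 50 after the start) was held for 6 of the 10 genes, and 4 are printed: Marco and Cx3cr1, where H3K27ac was missing from both or 1 of the cKO lists, and the neighbours Itgam and Itgax. All are written 5′ to 3′ on the strand of the gene. Capitals mark matches on either strand to 4 motifs: GAGGAA (the core bound by PU.1, a factor of the myeloid lineage), TATAAA (the TATA box), TGANTCA (AP-1) and CCAAT. No match shown overlaps another.
Marco promoter, chr1:120504975-120505274, minus strand: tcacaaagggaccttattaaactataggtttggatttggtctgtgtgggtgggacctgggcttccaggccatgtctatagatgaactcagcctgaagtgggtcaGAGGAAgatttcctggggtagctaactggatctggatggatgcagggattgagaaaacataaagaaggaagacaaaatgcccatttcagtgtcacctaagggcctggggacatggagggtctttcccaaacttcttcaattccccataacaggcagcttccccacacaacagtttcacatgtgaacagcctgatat
Itgam promoter, chr7:128062390-128062689, plus strand: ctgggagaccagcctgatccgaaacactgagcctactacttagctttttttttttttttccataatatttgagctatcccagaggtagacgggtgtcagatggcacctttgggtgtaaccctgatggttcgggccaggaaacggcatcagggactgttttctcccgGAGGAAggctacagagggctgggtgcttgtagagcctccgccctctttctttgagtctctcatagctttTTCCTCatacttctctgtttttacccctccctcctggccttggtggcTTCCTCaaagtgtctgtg
Itgax promoter, chr7:128129300-128129599, plus strand: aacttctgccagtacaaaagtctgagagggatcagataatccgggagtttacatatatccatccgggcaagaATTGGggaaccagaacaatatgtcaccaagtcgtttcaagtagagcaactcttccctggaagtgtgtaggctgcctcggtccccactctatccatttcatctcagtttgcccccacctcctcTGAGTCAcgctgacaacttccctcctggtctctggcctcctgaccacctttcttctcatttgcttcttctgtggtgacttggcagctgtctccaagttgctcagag
Cx3cr1 promoter, chr9:120068247-120068546, minus strand: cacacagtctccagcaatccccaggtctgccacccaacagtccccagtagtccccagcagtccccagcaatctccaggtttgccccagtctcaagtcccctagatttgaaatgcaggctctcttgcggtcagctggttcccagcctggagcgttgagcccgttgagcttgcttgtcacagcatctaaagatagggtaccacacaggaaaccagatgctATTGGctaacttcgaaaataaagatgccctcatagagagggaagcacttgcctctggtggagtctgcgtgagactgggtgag

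The last pair of sequences are the central 300 bases of a region found only in both cKO lists, inside Itgax, and of a region found only in both WT lists, inside Adgre1. The Adgre1 region was the one of its 4 lost regions with H3.3-HA over the greatest share of its length in the H3.3-HA list that held less of it. They were read from the GRCm38.p6 genome on the plus strand, with the same capitals.
Itgax gained region, chr7:128133814-128134113: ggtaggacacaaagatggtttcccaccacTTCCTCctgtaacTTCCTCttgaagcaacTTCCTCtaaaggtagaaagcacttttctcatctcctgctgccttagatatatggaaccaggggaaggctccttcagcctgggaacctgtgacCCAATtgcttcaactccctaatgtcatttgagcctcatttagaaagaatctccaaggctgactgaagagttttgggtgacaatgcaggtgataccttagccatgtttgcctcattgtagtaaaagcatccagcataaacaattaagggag
Adgre1 lost region, chr17:57402321-57402620: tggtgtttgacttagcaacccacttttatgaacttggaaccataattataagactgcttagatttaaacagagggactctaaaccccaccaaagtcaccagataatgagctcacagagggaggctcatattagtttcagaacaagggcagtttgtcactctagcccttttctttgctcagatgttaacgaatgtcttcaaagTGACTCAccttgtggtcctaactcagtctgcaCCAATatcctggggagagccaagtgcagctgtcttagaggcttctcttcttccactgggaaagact

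Regions of the lists covered these sequences unevenly. Of the 300 bases of the Marco promoter, WT H3K27ac replicates 1 and 2 covered 300 and 131, and both cKO lists 0. The Cx3cr1 promoter was covered in full in both WT lists and in cKO replicate 2, and at 0 bases in cKO replicate 1. At the Itgam promoter WT covered all 300 bases in both lists and cKO 70 and 188, and at the Itgax promoter WT covered 207 and 268 bases and cKO 0 and 300. No H3K36me3 list touched any of the 4. The Adgre1 sequence was covered in full by both WT H3K27ac lists, both H3.3-HA lists and all 4 H3K36me3 lists, and was absent only from cKO H3K27ac. The Itgax region was covered in full by both cKO H3K27ac lists and by H3.3-HA replicate 1, and by no other list.

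The Itgam promoter held 3 matches to GAGGAA and the Marco promoter 1, while the Itgax and Cx3cr1 promoters held 0. Of 32851 mouse promoters of this length, 28.3% held at least 1, so a match is common. The Itgax promoter held 1 AP-1 match, which 7.81% of promoters shared, and the gained Itgax region held 3 GAGGAA matches, a motif present at the centre of 899 of all 2995 gained H3K27ac regions. The lost Adgre1 region held 1 AP-1 match and 1 CCAAT match, found in 13.3% and 32.5% of the centres of all 12771 lost regions. CCAAT was present in 37.4% of promoters and in 32.0% of gained regions, and TATAAA, absent from the 6 printed sequences, was present in 13.6% of promoters. These are letter matches only.

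In the following, coverage is the percent of a gene's window that lay inside called regions of a library. A gene was counted as tested for a mark when at least 2 of the 4 libraries had a region in its window. The 4 lists of a mark were merged, and a merged region was lost when both WT libraries and neither cKO library held it, and gained in the opposite case. The lists held no read counts or heights, so a region missing from a list may have fallen just short of the caller's threshold. With 2 libraries against 2, a two-sided exact permutation test cannot give a p below 0.333, so no difference between WT and cKO reported here could pass 0.05. "Lower" and "higher" below mean only that the values of the cKO libraries lay on 1 side of both WT values. The lists differed in extent as a whole. H3K27ac regions covered 89.6 and 74.8 Mb in WT and 46.2 and 62.0 Mb in cKO. H3K36me3 regions covered 164 and 170 Mb in WT and 90.7 and 163 Mb in cKO, cKO replicate 1 standing apart. Their part in the results was not tested.

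The targeted genes were checked first. The study describes loxP sites around exon 2 of H3f3a and around exons 1 to 4 of H3f3b. No list held a region over exon 2 of H3f3a, so it checks nothing. At H3f3b, no list held a region over exons 2 and 3. From exon 1 to exon 4 (chromosome 11, 116021961 to 116024504), H3K27ac regions covered 0 bp in both WT libraries, and 1212 and 1667 of 2544 bp in the libraries labelled cKO, over exons 1 and 4. H3K36me3 regions covered 645 and 860 bp in WT and 1070 and 1122 bp in the libraries labelled cKO, all within exon 4. The deletion was thus not visible in these lists, and regions were called over exons 1 and 4 of H3f3b in the libraries labelled cKO. The lists hold only the ends of called regions and no reads, and the positions of the loxP sites were not given in the sources used here. The lists therefore cannot decide whether the whole stretch was lost. The study itself reported excision of both genes by PCR in cKO BMDMs. It also reported depletion of H3.3 RNA by qRT-PCR and RNA-seq, and of the protein by western blot. Below, WT and cKO are the names given in the labels, on which the direction of every contrast depends.

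The 10 receptor genes did not share a direction. H3K27ac coverage was lower in cKO at Msr1, Adgre1, Itgam, Cd36 and Marco, higher at Cd68, Itgax and Cx3cr1, and overlapped between genotypes at Csf1r and Cd14. Lower coverage in 5 of 10 members stood beside 41.7% of 11696 genes tested, and higher coverage in 3 of 10 beside 19.0%. A lost H3K27ac region was present in 5 of 10 members (Adgre1, Itgam, Cd68, Cd36 and Marco) against 40.6% of all genes tested. A gained region was present in 4 (Csf1r, Itgax, Cd36 and Cx3cr1) against 18.8%. The median change over the members was -1.69 percentage points, close to -1.32 over all genes tested. With the lists cut to the same number of regions, 2 members had a lost region and 2 had lower coverage, beside 28.0% and 34.5% of genes. With coverage scaled to the total covered length of each library, the split turned to 3 lower and 6 higher, where all genes stood at 24.8% and 41.1%, and the median change became 9.69 points (1.18 over all genes). Without WT replicate 2 or cKO replicate 2, the count of members with a lost region was 8 or 9, beside 60.1% and 56.2% of genes. With a list left out, the rule for a call is looser by construction. Without WT replicate 1 higher coverage was found in 5, beside 31.5% of genes, and the median change was 1.81 (-0.572 over all genes).

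H3K36me3 went differently. Of the 9 members tested (all but Marco), coverage was lower in cKO at Itgax and Cd14, beside 40.4% of 11185 genes, and higher at Csf1r, Cd68 and Cd36, beside 8.40%. The median change over the 10 members was 0.82 points (1.64 over the 9 tested), against -5.87 over all genes tested. A lost H3K36me3 region was present in 2 members (Cd14 and Msr1), against 25.2% of genes, and a gained region in 0, against 9.01%. With scaled coverage, 2 members were lower and 7 higher, where all genes stood at 31.4% and 30.6%, and the median became 23.1 points (-0.172 over all genes). Without cKO replicate 1, whose list covered least, 6 members and 40.8% of genes had higher coverage, 3 members and 32.1% of genes a gained region, and the members' median was 7.19 (0 over all genes). Without cKO replicate 2, 6 members and 86.1% of genes had lower coverage. Without WT replicate 2, 4 members and 40.2% of genes had a lost region. With regions of 1 kb or more, or with regions up to 1 kb apart joined, 1 member did, beside 20.4% and 19.4% of genes.

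**Figure D1:**
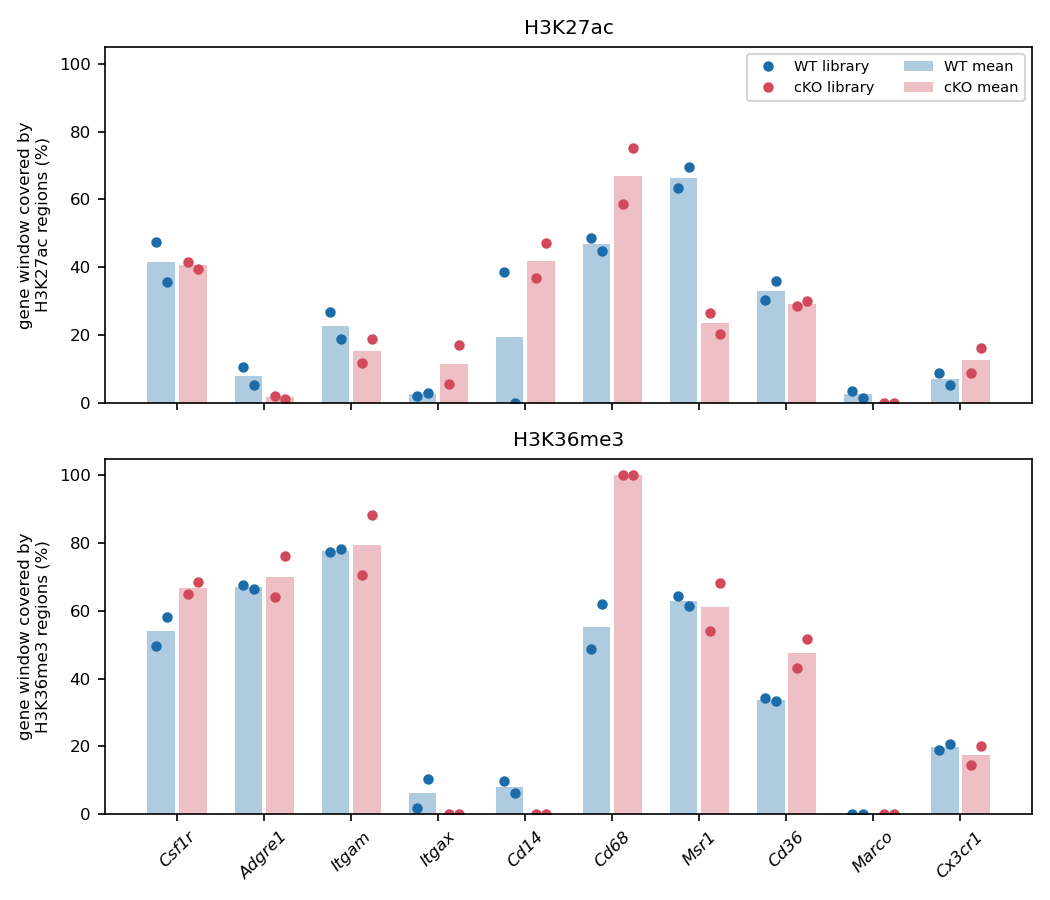
Percent of each gene's window (gene body plus 5 kb upstream) inside called regions of H3K27ac (top) and H3K36me3 (bottom), with bars for the mean of 2 libraries and points for each library, WT in blue and cKO in red. Msr1 has the widest gap for H3K27ac (66.5% against 23.4%) and Cd68 for H3K36me3 (55.4% against 100%), while Marco has no H3K36me3 region in any library.

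Msr1, the class A scavenger receptor, showed the largest difference in H3K27ac among the members. It is a gene of chromosome 8 (39581685 to 39642673, minus strand). H3K27ac took up 63.3% and 69.7% of its window in the WT libraries and 26.6% and 20.1% in the cKO libraries (66.5% ± 4.53 and 23.4% ± 4.58, SD, n = 2). The WT values lay well above both cKO values and the spread within a genotype was small beside the gap. In WT the widest region spanned 14320 and 14951 bp, and in cKO 8049 and 4629 bp. The gene therefore carried broad H3K27ac domains in WT and shorter pieces of them in cKO. No merged region counted as lost: 4 merged regions, of 3776 to 15580 bp, were held by all 4 libraries. The widest of them, 10.7 to 26.3 kb into the gene, was covered over 14320 and 14505 bp in WT and over 5669 and 4660 bp in cKO. Between 31.7 and 42.8 kb, 7643 and 11177 bp of WT coverage stood against 501 bp in each cKO library, which is a minimal region. These cKO regions lay apart from each other, at 39.5 to 40.0 kb and 42.0 to 42.5 kb. The stretch counts as held by all 4 libraries only because a single region of WT replicate 2 spans it. The gap was present on both sides of the gene's midpoint, with 84.3% and 84.6% of the 5′ portion covered in WT against 40.8% and 27.2% in cKO, and 39.0% and 49.9% of the 3′ portion against 8.05% and 5.95%. The change kept its sign under every alternative tried, at -25.1 points after scaling.

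H3K36me3 over Msr1 did not follow. It covered 64.6% and 61.4% of the window in WT and 54.1% and 68.2% in cKO, so the genotypes overlapped. A block of 43155 bp from just inside the gene was held in all 4 libraries. A short region near the 3′ end (39584678 to 39585695, intron 9) was found in both WT lists only. H3.3-HA covered 48.0% and 29.9% of the Msr1 window, and 84.9% of the length that both H3.3-HA lists held there lay inside WT H3K27ac of both libraries. In cKO H3K27ac that share was 24.6%. Because the H3.3-HA cells were another genotype, these are overlaps of position and not a contrast.

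**Figure D2:**
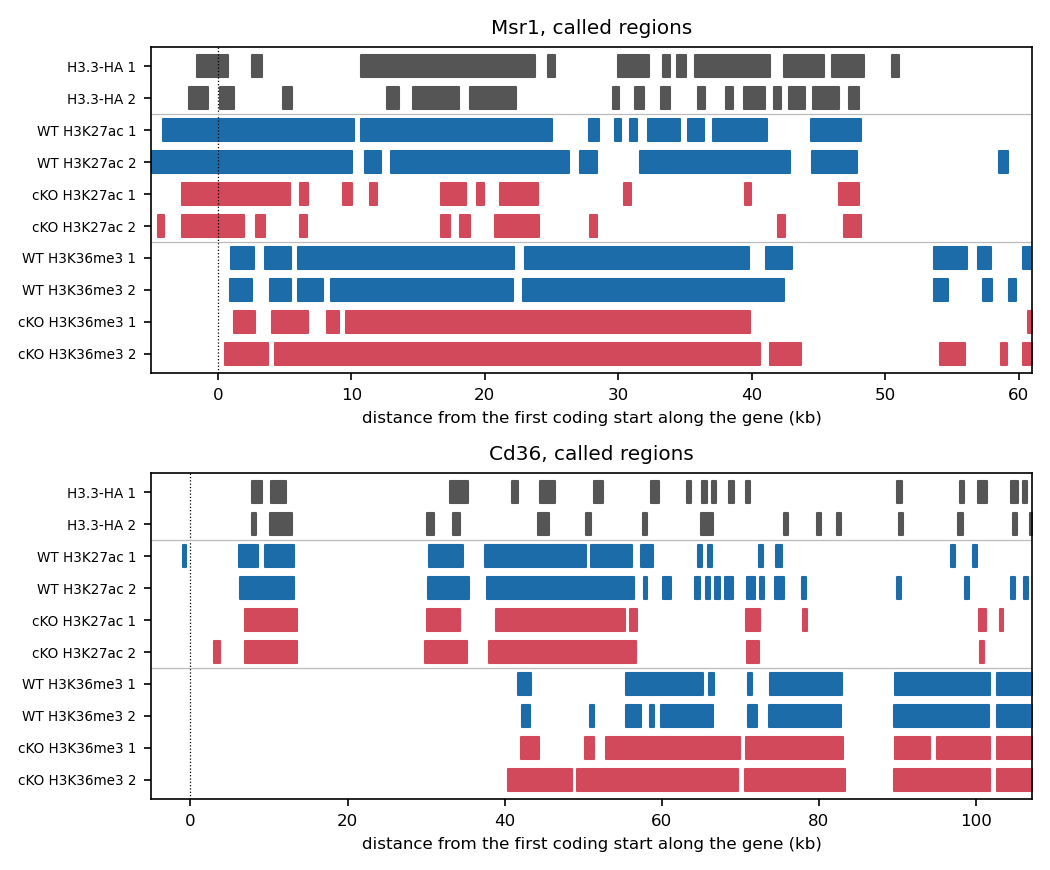
Called regions of each library along Msr1 (top) and Cd36 (bottom), drawn to scale by distance from the first coding start in kb, with H3.3-HA in grey, WT in blue and cKO in red. At Msr1 the WT H3K27ac blocks of 14320 and 14951 bp stand above short cKO pieces while the H3K36me3 block is long in all 4 libraries, and at Cd36 the large H3K27ac blocks in the 5′ portion of the gene have nearly the same length in both genotypes.

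Cd36, the class B scavenger receptor for oxidized lipoproteins and fatty acids, gave a different picture (chromosome 5, 17781690 to 17888801, minus strand). H3K27ac covered 30.1% and 35.8% of the window in WT and 28.4% and 29.9% in cKO, and the cKO values were lower by a margin within the WT spread. Under scaled coverage the sign turned (9.67 points higher), and with regions of 1 kb or more, lists of equal length or the gene body alone the genotypes overlapped. The domains in the 5′ portion, including a block of 19331 bp from 37.5 to 56.8 kb, were held nearly in full by all 4 libraries. Between 57.3 and 75.5 kb into the gene, 4 short intronic regions of 704 to 1496 bp were lost. A region of 874 bp in intron 12 (17787582 to 17788455) was gained. H3K36me3 was higher in cKO: it covered 34.3% and 33.4% in WT and 43.3% and 51.7% in cKO (33.8% ± 0.623 and 47.5% ± 5.98). The added length lay mostly between 49.2 and 70.0 kb, where a merged block held 10453 and 9454 bp in WT and 18235 and 20420 bp in cKO. Of the 4 lost H3K27ac regions 3 lie inside that block. Neither genotype had H3K36me3 before 40.4 kb. Cd36 has 6 coding starts in the annotation, and both cKO libraries had H3K36me3 at a promoter window of at least 1 of them, which no WT library had.

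Marco, the collagen-like scavenger receptor for bacteria, was the sparsest of the genes (chromosome 1, 120474538 to 120505024, minus strand). Its promoter held an H3K27ac region of 758 bp in WT replicate 1 and 501 bp in WT replicate 2, and none in cKO. This was the only lost region of the members placed at a promoter, from -0.339 to 0.419 kb around the start, over the promoter printed above. H3.3-HA covered it over 715 bp in replicate 1 and was absent in replicate 2. WT replicate 1 had 1 more region, in intron 1, and no library had an H3K36me3 region anywhere in the window. With regions under 1 kb left out, nothing of Marco remained, so the call rests on regions near the narrowest that the caller reports.

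Adgre1, the gene of F4/80, held much H3K36me3 and little H3K27ac (chromosome 17, 57358691 to 57483527, plus strand). H3K27ac covered 10.4% and 5.05% of the window in WT and 1.95% and 1.05% in cKO, a change of -6.22 points, from 13 and 7 regions in WT and 3 and 1 in cKO. WT was above cKO in both libraries, with the WT libraries far apart from each other. The 4 lost regions lay in intron 2 (57364000 to 57364666 and 57400114 to 57401205), intron 3 (57402064 to 57402876) and intron 7 (57408190 to 57409399), between 5.31 and 50.7 kb into the gene. Repeats masked in the reference made up 99.1%, 82.6%, 2.58% and 65.0% of them, against a median of 18.3% over all lost regions, so 3 of the 4 lie largely in repeats. The intron 3 region, whose centre is printed above, was held by H3.3-HA over 595 and 813 of 813 bp. The merged region at the 5′ end held 4570 and 2843 bp in WT and 2029 and 1357 bp in cKO, at different places: the WT regions began 0.21 and 0.278 kb after the start, and a region of each cKO library lay across it. H3K36me3 covered 67.7% and 66.4% in WT and 64.1% and 76.2% in cKO and overlapped between genotypes. H3.3-HA was spread along the gene in 20 and 27 regions, and 82.8% of the length shared by its libraries lay inside WT H3K36me3.

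Itgam and Itgax, which encode the alpha chains CD11b and CD11c of the beta 2 integrins, are neighbours on chromosome 7 and differed in sign. Itgam (128062640 to 128118491, plus strand) had H3K27ac over 26.6% and 18.9% of its window in WT and 11.7% and 18.7% in cKO. The second WT and second cKO library were nearly equal, so the call of lower coverage hangs on a narrow margin, and scaled coverage put the change at 0.24 points in the other direction. The genotypes overlapped with lists of equal length and with 20 kb on both sides. Its 3 regions held by all 4 libraries include the promoter and a block 23.6 to 28.1 kb into the gene, and the lost region was 568 bp in intron 14 (128104906 to 128105473). A region of cKO replicate 1 (128104265 to 128104765) ended just before the lost one, so that call also rests on a narrow gap. H3K36me3 covered 77.3% and 78.3% in WT and 70.7% and 88.2% in cKO, the highest WT level of the 10 genes. A readthrough gene model, Gm49368, spans 91.7% of the Itgam window and 13.8% of that of Itgax. Regions inside Itgam and at the Itgax promoter therefore cannot be told apart from those of Gm49368. The gained region of Itgax and its H3K36me3 regions lay outside that model.

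Itgax (128129547 to 128150657, plus strand) had H3K27ac over 1.92% and 2.93% of its window in WT, all of it at the promoter. In cKO it had 5.61% and 16.9%. Both cKO values were higher, although they lay further from each other than the lower of them did from WT, and with regions of 1 kb or more the genotypes overlapped. The region gained in both cKO libraries spans 128133283 to 128134643, 3.74 to 5.10 kb into the gene, with its centre within exons or intron 8 depending on the transcript, and measured 964 and 1361 bp. H3.3-HA replicate 1 held 758 bp of it and replicate 2 none. H3K36me3 was seen in WT only, at 1.92% and 10.4%, and at 0% in both cKO libraries. Those WT regions were short, and none was shared between the WT libraries, so no region counted as lost. Itgax thus had more H3K27ac and less H3K36me3 called in cKO.

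**Figure D3:**
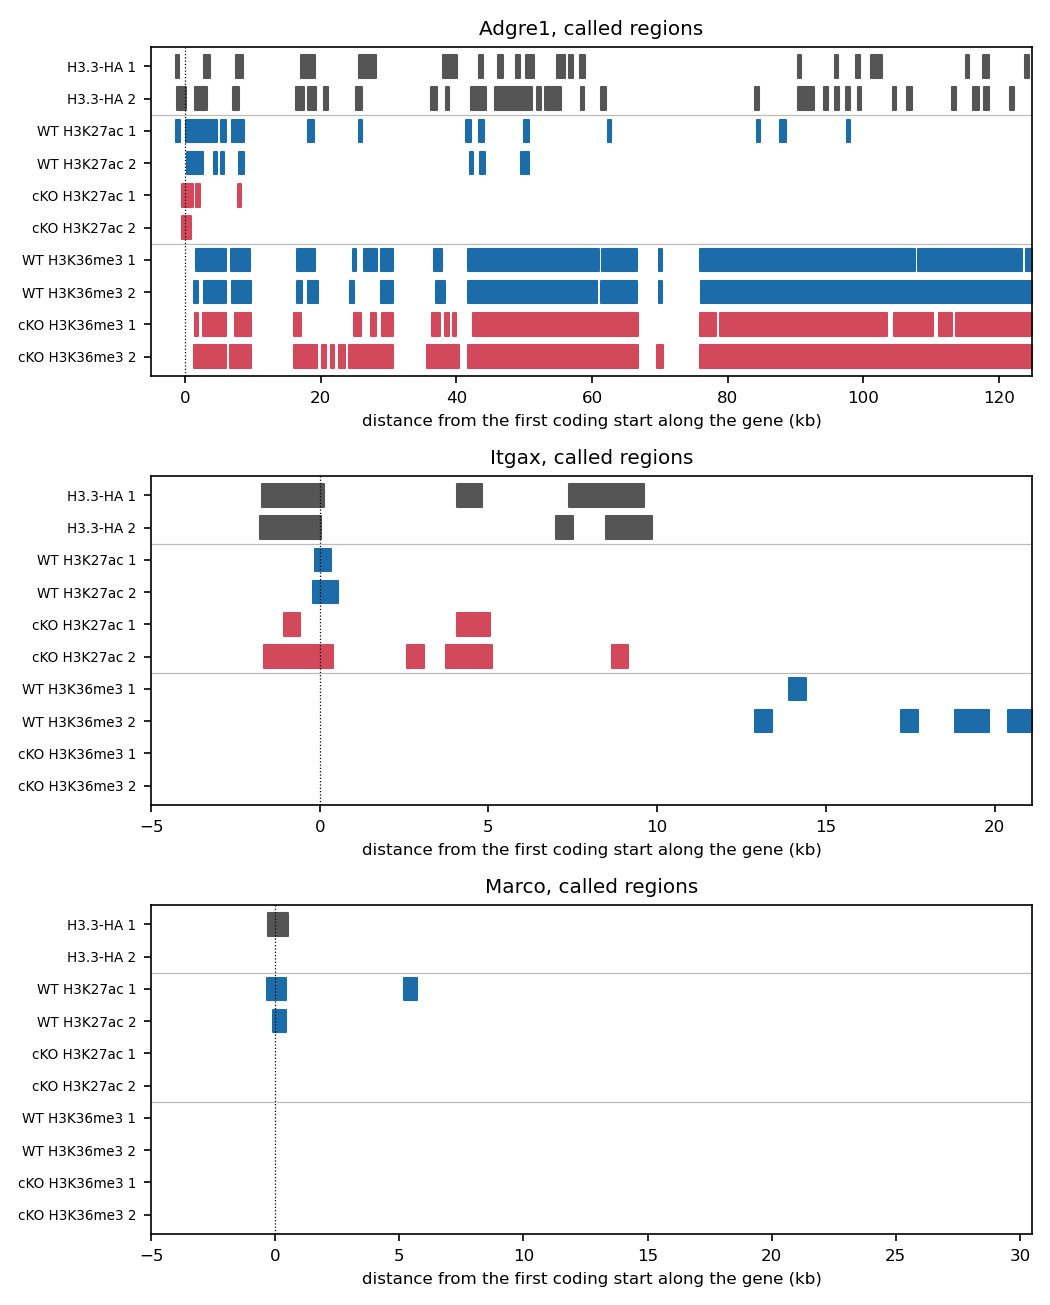
Called regions along Adgre1, Itgax and Marco, by distance from the first coding start in kb, with 10 libraries as rows in the same colours. Adgre1 has 13 and 7 H3K27ac regions in WT and 3 and 1 in cKO beside H3K36me3 in 11 to 16 pieces, Itgax has an added cKO region at 3.74 to 5.10 kb, and Marco has H3K27ac at its start in WT and not in cKO, with H3.3-HA there in replicate 1.

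Csf1r, the receptor on which these cultures depend, showed no separation in H3K27ac (chromosome 18, 61100598 to 61132149, plus strand). Coverage was 47.4% and 35.5% in WT and 41.7% and 39.5% in cKO. WT replicate 1 and replicate 2 enclosed both cKO values. The sign of the change was not stable, being -0.91 points as deposited and 18.2 after scaling. A merged region of 12179 bp around the first coding start had H3K27ac from all 4 libraries, over 6831 and 9630 bp in WT and 11244 and 11346 bp in cKO, but WT replicate 1 covered only its part from -8.09 to -1.26 kb and not the start. The gained region was 714 bp in intron 20 (61129447 to 61130160). H3K36me3 covered 49.7% and 58.2% of the window in WT and 65.1% and 68.6% in cKO (54.0% ± 6.01 and 66.8% ± 2.45), higher in both cKO libraries, although with 20 kb on both sides they overlapped (2.31 points). It formed 4 and 3 regions in WT and 2 and 1 in cKO, part of a merged block of 67842 bp that runs on into the neighbouring gene Hmgxb3. Csf1r also held the most H3.3-HA of the members, 56.7% and 73.9%, above the next gene in both libraries.

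Cd14 and Cd68 are short genes whose windows are mostly upstream sequence. Cd14 (chromosome 18, 36725067 to 36726798, minus strand) had H3K27ac over 38.7% of its window in WT replicate 1, 36.7% in cKO replicate 1 and 47.2% in cKO replicate 2, and had none in WT replicate 2. The WT libraries differed more from each other than the genotypes did. Without WT replicate 2, the mean change of 22.6 points was 3.3. H3K36me3 was present at the 3′ end of Cd14 in WT, at 9.79% and 6.31%, and absent in cKO, and the lost region spans 36723785 to 36725725, past the end of the gene.

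Cd68 (chromosome 11, 69664213 to 69666153, minus strand) was higher in cKO for both marks. H3K27ac covered 48.7% and 44.8% in WT and 58.7% and 75.2% in cKO. With regions up to 1 kb apart joined, or with 20 kb on both sides, the genotypes overlapped, with changes of 11.3 and 5.53 points in place of 20.2. H3K36me3 covered 48.8% and 62.0% in WT and the whole window, 100%, in both cKO libraries. Over the gene itself both cKO libraries had full H3K36me3 coverage and both WT libraries none, the WT regions lying upstream. Eif4a1, which encodes a translation factor, takes up 60.8% of this window, and the marks of the pair cannot be told apart upstream of Cd68. A short region inside Eif4a1, at -3.78 to -3.05 kb from the start of Cd68, was lost. A region of cKO replicate 2, from -7.09 to -3.84 kb, ended just short of it, so this call rests on a narrow gap.

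Cx3cr1, the fractalkine receptor, has an annotated span of 168 kb on the minus strand of chromosome 9 (119901616 to 120069879), 51.6% of whose window lies in Wdr48, Gorasp1, Ttc21a, Csrnp1 or Xirp1. H3K27ac covered 8.68% and 5.09% of this window in WT and 8.84% and 16.0% in cKO. The first cKO library was above the first WT library by 0.158 points only. In the shorter RefSeq span (120048683 to 120068296), added after the data were seen, coverage was 10.1% and 5.46% in WT and 5.31% and 34.7% in cKO, so there the genotypes overlapped and cKO replicate 2 stood alone. The gained region (120001521 to 120003131) lies outside the RefSeq span, far downstream of the receptor's coding exons. H3K36me3 covered 19.0% and 20.7% in WT and 14.6% and 20.2% in cKO, nearly all of it over Wdr48, Gorasp1 and Csrnp1. In the RefSeq span it was 0% in both WT libraries and cKO replicate 1 and 5.57% in cKO replicate 2.

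**Figure D4:**
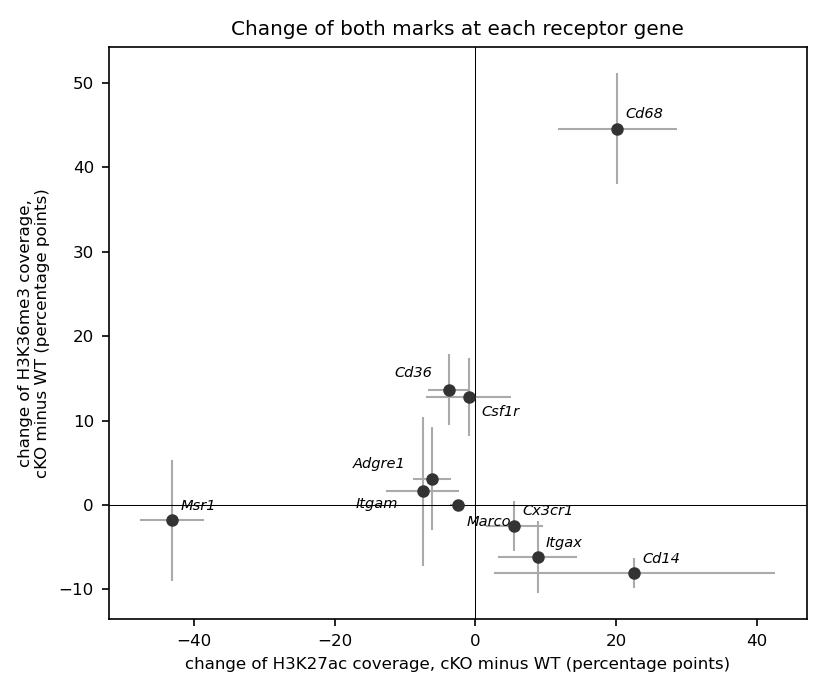
Change of coverage, cKO minus WT, in percentage points for H3K27ac (horizontal) and H3K36me3 (vertical) at the 10 genes; points are differences of means of 2 libraries per genotype, and bars are the standard error of that difference. Msr1 lies far to the left near zero on the vertical axis (-43.1 and -1.81), Cd68 at the upper right (20.2 and 44.6), and Itgax and Cd14 at the lower right.

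H3K27ac and H3.3-HA lay at most of these promoters. An H3K27ac region lay at a promoter (1 kb upstream to 100 bp downstream of a coding start) in both WT libraries at 7 of 10 members, against 25.0% of genes, and in both cKO libraries at 8 of 10, against 32.1%. Only Marco had it in both WT and no cKO library, and no member had it in both cKO and no WT library. Csf1r, Adgre1 and Cd14 had it in 1 WT and both cKO libraries, and Cx3cr1 in both WT and 1 cKO library. An H3.3-HA region lay there in both libraries at 8 of 10, against 13.4% of genes. The exceptions, Cd36 and Marco, had it in 1. With regions of 1 kb or more only, these counts were 3 in WT, 7 in cKO and 4 for H3.3-HA. The shares of all genes were not computed under this setting. Whether these counts are particular to the members was not tested. H3K36me3 was at a promoter in both libraries at Cd68 and Cd36 in cKO, and in WT in 1 library at Cd68 alone.

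**Figure D5:**
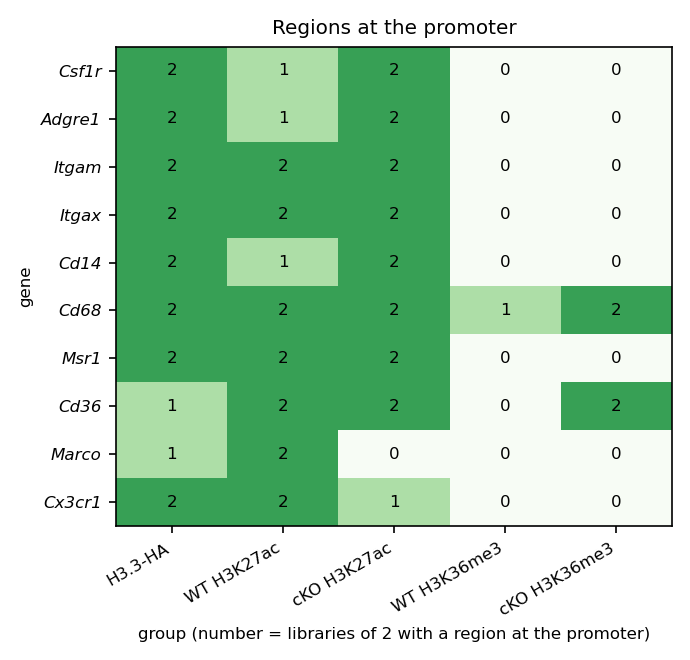
Number of libraries, of 2 per group, with a region at a promoter of each gene (rows) for the 5 groups (columns), darker for more. H3.3-HA and H3K27ac are at nearly every promoter, Marco lacks H3K27ac in cKO, and H3K36me3 is at the promoters of Cd68 and Cd36 in both cKO libraries.

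H3.3-HA was found in both libraries in the windows of 9 of 10 members, all but Marco, against 44.2% of genes. The length held by both libraries made up 12.9% of the members' summed windows and 2.15% of those of all genes. Of the members' shared H3.3-HA, 41.1% lay in WT H3K27ac and 43.7% in WT H3K36me3, against 51.9% and 23.4% over all genes. The members ran from genes whose H3.3-HA lay mostly under H3K27ac, Msr1 (84.9%) and Cd36 (68.9%), to Adgre1, where 82.8% lay under H3K36me3, and Itgax, where 94.0% lay under neither WT mark. Of the 11 lost H3K27ac regions of the members 4 had H3.3-HA in both libraries and 8 in at least 1. Of the 21 regions held by all libraries 19 had it in both, and these were also wider (median 4496 bp against 801 bp). Of the 4 gained regions 1 had it in both and all 4 in at least 1. The same shares over the lost, kept and gained regions of all genes were not computed, so these counts show no trait of the members.

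Levels across the genes were ordered as follows, each as percent of window and so per length. For WT H3K27ac the order was Msr1 (66.5%), Cd68, Csf1r, Cd36, Itgam, Cd14, Adgre1, Cx3cr1, Marco and Itgax (2.42%), and the only neighbours whose libraries did not overlap were Msr1 and Cd68, Cd36 and Itgam, and Cx3cr1 and Marco. In cKO Cd68 led (67.0%) and Msr1 held rank 5 (23.4%). For WT H3K36me3 Itgam led (77.8%), followed by Adgre1 (67.0%), Msr1 (63.0%), Cd68, Csf1r, Cd36 (33.8%), Cx3cr1, Cd14, Itgax and Marco at 0%. Itgam, Adgre1 and Msr1 were separated from each other in WT, and in cKO the neighbours Itgam, Adgre1, Csf1r and Msr1 overlapped in turn. In cKO Cd14 and Itgax joined Marco at 0%.

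Of 38 related receptor and pathway genes, listed by function, 34 were tested for H3K27ac and 31 for H3K36me3. A lost H3K27ac region was present in 20 and a gained one in 4, beside 40.6% and 18.8% of all genes tested. Coverage was lower in 19 and higher in 6, beside 41.7% and 19.0%, with a median change of -2.98 points. With scaled coverage the split was 11 lower and 12 higher, beside 24.8% and 41.1%. Without cKO replicate 1 or cKO replicate 2, a gained region was present in 12 or 7, beside 45.4% and 39.7%. Among 5 integrin genes tested all were lower, and among 11 scavenger receptor genes 7 were lower and none higher, whereas the chemokine receptors and ligand gave 1 lower and 2 higher of 5. Of the pathway of CSF1R (ligands, related receptors and adaptors) 2 were lower and 2 higher of 6, of the adhesion receptors 1 and 1 of 2, of LPS reception 1 and 1 of 3, and both CD68 relatives were lower.

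The greatest lost lengths were at Mrc1, the mannose receptor (15840 bp), Itga4 (7934 bp) and Itgb1 (7245 bp), integrin chains, and Stab1, a scavenger receptor (4850 bp). Mrc1 had 37.9% and 33.7% H3K27ac coverage in WT and 6.38% and 4.55% in cKO, while its H3K36me3 was 70.7% and 72.2% in WT and 78.9% and 82.2% in cKO. Itgb1 had 59.3% and 54.1% in WT and 13.2% and 9.27% in cKO, with overlapping H3K36me3. Gained H3K27ac was greatest at Adgre5, the adhesion receptor CD97 (2211 bp), followed by Lrp1, Itgb2 and Scarb2 with 641 to 729 bp each.

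For H3K36me3, 4 related genes were lower and 13 higher, beside 40.4% and 8.40% of all genes tested, 2 had a lost and 4 a gained region, beside 25.2% and 9.01%, and the median change was 4.28 points. With scaled coverage 2 were lower and 22 higher, beside 31.4% and 30.6%. Without cKO replicate 1, 22 were higher and 14 had a gained region, beside 40.8% and 32.1%. Without cKO replicate 2, 14 were lower and 11 had a gained region, beside 86.1% and 21%. Without WT replicate 1 or WT replicate 2, a lost region was present in 9 or 7, beside 42.3% and 40.2%, and without the former 7 were lower, beside 50.7%. Scarb1 (2600 bp) and Cd163 (219 bp), both scavenger receptors, held the lost regions, and the gained ones included those of Csf2ra (3072 bp), Itgad (1517 bp) and Lrp1 (178 bp).

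The genes outside the list whose coverage over all 10 libraries was nearest to the members' median were Gmnn, Tpm3, Arpc3, Usp5 and Gramd1a, with mean absolute differences of 3.82 to 4.66 percentage points. None of these is a surface receptor, and the likeness is to the median only.

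The cell type was checked against markers. All 7 macrophage markers, among them Spi1, Lyz2, Fcgr1, Mertk, C1qa and Ctss, had regions of both marks, with 49367 to 61450 bp of H3K27ac in WT and 35962 to 40547 bp in cKO. Lyz2, which carries Cre in cKO, had H3K27ac over 94.2% and 88.4% of its window in WT and 28.1% and 24.4% in cKO. H3K36me3 was absent in every library from all 7 neutrophil, 5 T cell and 4 fibroblast markers and from 3 of 4 B cell markers. H3K27ac lay at 4 of 7 neutrophil markers (3732 to 3800 bp in WT, 2064 to 3813 bp in cKO), 2 of 5 T cell markers (0 to 161 and 903 to 1398 bp), 2 of 4 B cell markers (4565 to 4728 and 3158 to 6723 bp), 1 of 2 dendritic cell markers (0 to 501 and 501 to 1538 bp) and at none of 4 fibroblast markers. Ly6g, S100a8, S100a9, Cd3e and Zbtb46 had no H3K27ac region. Others went the other way. The B cell marker Ms4a1 had 21.2% and 19.7% in WT and 14.6% and 25.8% in cKO, with a promoter region in both libraries of each genotype. Of the neutrophil markers, Elane had 16.0% and 7.19% in WT and 7.19% and 23.7% in cKO, and Ltf 9.43% and 11.3% against 3.73% and 5.82%. The T cell marker Cd3d had 0% in both WT libraries and 8.56% and 13.2% in cKO. In such bulk cultures, fewer cells of a type and less of a mark per cell cannot be told apart.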

How the data were processed

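The study made region lists of 10 CUT&RUN libraries of mouse BMDMs. The authors aligned the reads to mm10 with Bowtie2 in local mode. Per the file headers they called regions with HOMER findPeaks in its histone style, library by library. The peak size was 500 bp and the minimum distance 1000 bp, with 4-fold enrichment and a Poisson p-value of 1e-04 over an IgG control. Regions of a list could lie closer together than 1000 bp. The deposited values are the start and end of each region, with a constant score, so the read-count test of the study could not be run. The 5 IgG samples entered only as those controls.

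From the lists, covered length, number of regions and merged-region states were computed per gene (Python 3.11.15, numpy 2.4.6), with at least 1 bp of overlap, on GENCODE M21. The functions were tested on simulated lists. Percent of window covered was compared between genotypes, 2 libraries each, with exact permutations (two-sided, smallest p 0.333) and, as an alternative, by sign flips of same-numbered pairs (smallest p 0.5). Counts and medians over the members have no test. All 10 members are named, with up to 3 lost or gained regions per mark, up to 4 related genes per mark and direction by greatest lost or gained length, and the 5 genes most alike. At Adgre1 and Cd36 all 4 lost regions are given, the shortest of each being added after the values were seen, as were the values of other related genes and markers named for a result. Alternatives were regions of 1 kb or more, lists of equal length, the gene body alone or with 20 kb on both sides, regions joined within 1 kb, scaled coverage, another promoter window, each library left out and the replicate block. The RefSeq span and the related genes' alternatives were added after the data were seen. The members and lists were chosen with earlier results of these data known. Values of some related and marker genes are not reported here.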

Additional observations from a re-analysis of the deposited data

How the results depend on the processing

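Of 130 recomputed counts and medians over the members 103 were labelled as the same. A count had to stay within 1.5 times. A median had to stay within 1 SD of the medians from the 4 pairings of a cKO with a WT library. That band is wide: the H3K27ac median went from -1.69 to 0.0806 with lists of equal length and was labelled the same. Of 240 recomputed changes of single members 14 reversed sign. The other 226 include changes of 0, such as those of H3K36me3 at Marco. They also include the replicate block, whose mean change equals the main one by construction, so 226 does not measure stability. No test could pass a threshold, so these counts say nothing of significance. For H3K27ac, with regions of 1 kb or more the counts of members with a lost and a gained region were 2 and 1, beside 33.7% and 18.2% of genes. Lower coverage was found in 3, beside 40.6%. With lists of equal length lost regions were found in 2 and lower coverage in 2, and Csf1r stood at 0.82 points. Scaling by total covered length gave 3 lower and 6 higher, a median of 9.69, and positive changes at Csf1r (18.2), Itgam (0.24) and Cd36 (9.67), and scaled coverage can exceed the window. In the RefSeq span Csf1r stood at 0.49. Leaving out a library in turn gave 6 to 9 members with a lost region, 3 to 5 with higher coverage, a median of -2.25 to 1.81 (1.81 without WT replicate 1) and -6.85 to 5.04 at Csf1r. For H3K36me3, regions of 1 kb or more gave 1 member with a lost region and 1 with lower coverage, joining gave 1 with a lost region, and 20 kb on both sides gave 1 with lower coverage. Scaling gave 7 higher, a median of 23.1, and positive changes at Msr1 (19.1) and Cx3cr1 (3.44), the latter 2.79 in the RefSeq span. Leaving out a library gave 2 to 4 members with a lost and 0 to 3 with a gained region, 2 to 6 lower (6 without cKO replicate 2), 3 to 6 higher (6 without cKO replicate 1), a median of -4.11 to 7.19, and changes of -2.95 to 9.16 at Adgre1, -7.15 to 10.4 at Itgam, -8.84 to 5.22 at Msr1 and -5.27 to 0.35 at Cx3cr1. With regions of 1 kb or more, H3.3-HA and WT H3K27ac were at 4 and 3 promoters, a setting for which no share of all genes was computed. For H3K36me3, shares of all genes stand beside several of these counts in the Results, and the others are not reported here. Leaving out a library loosens the rules by construction, since a lost, gained, lower or higher call then has 1 list fewer to satisfy. What else moved these values was not tested.

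With the replicate block, 5 members were lower and 3 higher for H3K27ac, beside 44.5% and 21.6% of genes. For H3K36me3, 3 were lower and 3 higher, and the shares of all genes are not reported here. Differences between replicates correlated over genes at -0.097 for H3K27ac and 0.0897 for H3K36me3. This gave no sign that the numbers pair the samples, but does not settle it. No H3K27ac call of lower or higher coverage differed under the block, and for H3K36me3 Cx3cr1 was added to the lower genes. The H3.3-HA libraries had the fewest tags (6951296 and 5365319), and what depth did to the lists was not tested.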
